A study of Rattus norvegicus with 18 samples.

Results

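The genes described here are the zinc finger genes of the rat array whose symbol is Zfp or Znf followed by a number. They were taken from the symbols of the deposited ratio table, with Zfp36 and Zfp37 set aside, and a gene was kept when its signal was above 100 on at least 3 of the 18 arrays. This left 135 of 160 such genes, among 14001 named genes on the array, and 134 of the 135 passed the filter on low values and were tested. Where a gene has several probe sets, which 59 of the 135 have, the probe set with the highest mean level stands for it. Of the 135 symbols, 75 are current, 55 have another current symbol, given in brackets at first mention, and 5 were matched to none. Zfp706 and Znf706 are now names of the same gene, so the symbols stand for 134 genes. The signal that decided membership, the lowest of its 3 highest, was 103.84 for Zfp426, 104.76 for Zfp346 and 105.3 for Znf580 just inside the limit. Just outside it were Znf575 at 96.829, Znf608 at 95.818 and Zfp94 at 93.817.

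Liver was taken from 12-week-old Sprague-Dawley rats in 6 groups of 3 arrays. Normal liver was taken at 0 h and all other liver 2 h after surgery, which was a sham operation, partial hepatectomy (PH, surgical removal of part of the liver), or PH combined with sympathectomy (SPH), vagotomy (VPH) or total liver denervation (TDPH). All 3 denervated groups also had PH, and no group was denervated without it, while the 2 h groups have no unoperated control of the same time. Arrays within a group are labelled technical replicates, with no number of animals, so every SD, SE and p below measures the spread between arrays only.

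Most proteins of this family carry arrays of C2H2 zinc fingers that bind DNA. Many also carry a KRAB domain, which recruits the corepressor Trim28 and, through it, the Setdb1 histone methyltransferase and HP1 proteins to silence chromatin. A few members work differently: Zfp36l1 and Zfp36l2 have CCCH fingers that bind AU-rich elements in mRNA and promote its decay, and Zfp364 (Rnf115) and Zfp91 are ubiquitin ligases. Transcripts of zinc finger genes are, as a class, known to be short-lived. Related members can have similar sequences, and whether a probe set also binds a relative was not tested.

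Promoter windows of 5 genes are shown because results below turn on them: Zfp354a and Zfp36l1, which differed in most comparisons, and Zfp26, Zfp426 and Zfp426l (Zfp266), which stand next to each other in the genome and all had lower means after PH. The next gene of that run, Zfp426l2 (Zfp846), also had a lower mean, and its window was searched but is not shown. Each window runs from 250 bases before to 50 after the gene's start and is taken from RefSeq, build GRCr8. The sequences are given 5′ to 3′ on the strand of the gene, at chr10:35897013-35897312 (plus strand), chr6:104668641-104668940 (minus strand), chr8:27261600-27261899 (minus strand), chr8:27305008-27305307 (minus strand) and chr8:27337490-27337789 (minus strand), in the order listed. Capitals mark matches to the motifs searched, on either strand.
Zfp354a: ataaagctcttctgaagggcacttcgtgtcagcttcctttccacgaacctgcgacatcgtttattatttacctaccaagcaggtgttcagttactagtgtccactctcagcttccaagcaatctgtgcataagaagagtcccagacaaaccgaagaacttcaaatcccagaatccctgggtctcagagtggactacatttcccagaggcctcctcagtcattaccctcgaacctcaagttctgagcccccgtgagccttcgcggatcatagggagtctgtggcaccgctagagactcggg
Zfp36l1: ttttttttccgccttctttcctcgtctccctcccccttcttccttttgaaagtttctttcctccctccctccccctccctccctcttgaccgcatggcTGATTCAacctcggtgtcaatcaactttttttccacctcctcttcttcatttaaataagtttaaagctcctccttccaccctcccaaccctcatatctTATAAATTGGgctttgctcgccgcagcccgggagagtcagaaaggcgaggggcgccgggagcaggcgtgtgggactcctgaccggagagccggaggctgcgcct
Zfp26: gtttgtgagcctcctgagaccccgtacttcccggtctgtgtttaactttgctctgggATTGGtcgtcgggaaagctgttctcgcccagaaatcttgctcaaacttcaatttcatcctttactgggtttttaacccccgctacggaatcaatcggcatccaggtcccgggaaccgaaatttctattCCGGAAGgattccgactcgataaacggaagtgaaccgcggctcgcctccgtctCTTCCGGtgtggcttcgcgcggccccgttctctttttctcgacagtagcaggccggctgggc
Zfp426: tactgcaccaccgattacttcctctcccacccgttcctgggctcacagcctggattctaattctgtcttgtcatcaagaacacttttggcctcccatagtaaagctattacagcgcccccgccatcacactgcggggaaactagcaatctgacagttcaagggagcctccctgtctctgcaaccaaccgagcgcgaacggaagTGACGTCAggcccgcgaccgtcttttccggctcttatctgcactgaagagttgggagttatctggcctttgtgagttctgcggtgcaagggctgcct
Zfp426l: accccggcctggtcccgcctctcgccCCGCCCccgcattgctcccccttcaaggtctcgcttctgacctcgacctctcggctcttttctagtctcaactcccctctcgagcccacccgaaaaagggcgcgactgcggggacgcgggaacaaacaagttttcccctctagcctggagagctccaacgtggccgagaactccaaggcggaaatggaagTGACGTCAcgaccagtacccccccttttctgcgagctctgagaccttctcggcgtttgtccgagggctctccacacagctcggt

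The motifs searched were the CRE core TGACGTC, AP-1 TGANTCA, the E-box CACGTG, ETS CCGGAAG, the GC box GGGCGG, the CCAAT box, the TATA box TATAAA and the NRF1 half-site GCGCATG. Within TGACGTCA the CRE core is matched on both strands. Zfp426 and Zfp426l each hold TGACGTCA, Zfp26 holds ETS matches on both strands and a CCAAT match, and Zfp36l1 holds an AP-1 match and a TATAAA match that overlaps a CCAAT match. The Zfp354a window holds none of these strings, and neither does that of Zfp426l2, the neighbour of Zfp426l. Windows were found for 109 of the 135 genes. ETS matches were in 27 of the 109 (24.8%) and in 11.2% of 18999 windows of protein-coding genes, while AP-1 matches were in 4.59% and 6.65%, and CRE cores in 6.42% and 3.93%. The median GC content was 58.7% in the zinc finger windows and 55.3% in all, and the median CpG observed over expected was 0.739 and 0.549. A match is a string in a window and not a bound site.

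Differences are given as log2(signal + 12), fitted with limma over 22103 probe sets and all 18 arrays, and adjusted by Benjamini-Hochberg over all of them. In this text a gene "rose" or "fell" when its adjusted p was under 0.05 and the change at least 2-fold. Genes that passed the adjusted p alone are called higher or lower. All 12 hepatocyte markers were tested. Their summed signal was 400291 to 412559 in normal liver, 454384 to 482240 in sham, 482076 to 501469 in PH, 556288 to 594882 in SPH, 482333 to 507367 in VPH and 445355 to 483444 in TDPH. By the adjusted p, 8 of the 12 were higher in sham than in normal liver and 9 higher in SPH than in PH. Arrays had been scaled by the authors to one trimmed mean (500.2 to 500.3), and the median signal ran from 114.9 on a PH array to 150.9, so a fall is relative to the rest of the array. Actb probe sets at the 3′ and 5′ ends have a ratio that reflects how intact the RNA was. Its mean was 2.192 in sham, 1.998 in TDPH, 1.893 in normal liver, 1.839 in VPH, 1.802 in SPH and 1.756 in PH. The part of these ratios in the results was not tested. The SPH arrays varied most, with a median SD of 0.234 log2 units per probe set, against 0.156 in normal liver. In bulk tissue, fewer cells of a type and less RNA per cell cannot be told apart.

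The first question was what the operation alone did to these genes, from sham against normal liver. A single gene rose and a single gene fell among the 134 tested, with 1.03% of all probe sets rising and 1.99% falling. By the adjusted p alone, 5 were higher (7.78% of all probe sets were) and 9 lower (9.02%). The median difference was -0.01 over the zinc finger genes and -0.03 over all probe sets. The arrays of the groups did not overlap in 21 genes that were above normal (15.5% of all probe sets) and 18 that were below (19.7%). The 5 and 9 became 9 and 3 when each array was centred on its median, where 11.8% of all probe sets were higher and 5.69% lower. After quantile normalization they became 8 and 7, with 8.13% and 8.45% of all probe sets.

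Zfp354a, first described in rat as Kid-1, a KRAB repressor regulated in the injured kidney, gave the largest change in this comparison. Its signal was 648, 653 and 833 on the normal arrays and 3530, 3477 and 3483 on the sham arrays. The groups were far apart: the mean went from 711 ± 105 to 3497 ± 29.4 (SD, n = 3 arrays), a rise of 2.29 ± 0.19 (SE) with an adjusted p of 3.89e-08. Zfp385b went the other way, with 434, 348 and 333 in normal liver and 121, 222 and 189 after sham operation. Its fall was -1.05 ± 0.23 (adjusted p 0.00226). That fall was under 2-fold without normal array 1 (-0.93) or sham array 1 (-0.81), and after centring (-0.94) or quantile normalization (-0.97).

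Among the smaller changes after sham operation, Zfp281, a factor that binds GC-rich promoters, was lower on every sham array (1002 to 1045) than on every normal array (1477 to 1556), a difference of -0.56 ± 0.06 (adjusted p 1.49e-06). Znf710 (Zfp710) was lower by -0.83 ± 0.17 (adjusted p 0.00134), but a second probe set gave -0.49 with an adjusted p of 0.213. Zfp68 was lower by -0.51 ± 0.14 (adjusted p 0.0131), and its other probe sets gave -0.47 and -0.54, with adjusted p-values of 0.244 and 0.243. Without normal array 2, centred or after quantile normalization, Zfp68 no longer passed. Znf23 (Zfp612) was higher by 0.61 ± 0.16 (adjusted p 0.00816), with 0.24 and an adjusted p of 0.557 at its other probe set. Zfp446, which carries KRAB and SCAN domains, was higher by 0.54 ± 0.09 (adjusted p 1.97e-04). Zfp189, a KRAB gene, was higher by 0.45 ± 0.13 (adjusted p 0.0236), and its adjusted p was 0.129 without normal array 3, 0.0531 without sham array 1 and 0.0923 without sham array 2. With the sham operation the summed signal of 10 lymphocyte markers was also lower, 3697 to 4129 against 22402 to 23216 in normal liver. The part of those cells in these differences was not tested.

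The next question was what the loss of liver tissue added to the operation. After PH the zinc finger genes were, as a group, lower than after sham operation. Of the 134, 110 had a difference below 0, and the median was -0.41, against -0.11 over all probe sets. There were 9 falls and 2 rises, and among all probe sets 2.38% fell and 1.98% rose, so the share that fell was 6.72% of the zinc finger genes. By the adjusted p alone, 46 were lower (34.3%, against 13.6% of all probe sets) and 4 higher (2.99%, against 8.75%). In 71 genes (53%) all 3 PH arrays were below all 3 sham arrays, which held for 24.4% of all probe sets. The opposite held for 6 genes (4.48%), against 13.5%. Markers of other cells moved in the same comparison: 3 of 5 tested neutrophil markers rose (median 1.38), as did 3 of 10 lymphocyte markers (median 0.28) and 3 of 10 stellate cell markers (median 0.64). Summed neutrophil markers lay between 1867 and 2096 in sham and between 11776 and 12375 in PH. Summed lymphocyte markers lay between 3697 and 4129 in sham and between 9035 and 9154 in PH, and stellate cell markers between 1746 and 2045 and between 2960 and 3171. Their part in the lower zinc finger values was not tested.

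The lower values were found at every level of signal. Tested probe sets were split into 3 equal parts by mean level. In the dimmest part the median difference was -0.60 over 37 zinc finger genes and -0.19 over all. In the middle part it was -0.44 over 69 genes and -0.17 over all, and in the brightest part -0.29 over 28 genes and -0.03 over all. Lower by the adjusted p were 4, 27 and 15 of the zinc finger genes in these 3 parts. Of all probe sets, 364 of 7368, 1143 of 7367 and 1509 of 7368 were lower in the same parts. Of 21 other probe sets of the genes past the adjusted p, 20 had the same sign as the main one. Of all 22103 probe sets, 13653 were below 0 in this comparison. The same tally was 6 of 8 in sham against normal, 5 of 10 in SPH against PH and 6 of 6 in TDPH against PH. It was 8 of 11 in SPH against VPH, 10 of 13 in TDPH against SPH and 2 of 3 in TDPH against VPH.

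Scaling set part of the size of this difference. With each array centred on its median, the median over all probe sets moved from -0.11 to 0.04 and that over the zinc finger genes from -0.41 to -0.26. In limma's test, 29 were then lower and 6 higher, against 1474 lower and 3272 higher of 22103 probe sets. Quantile normalization gave a median of -0.28, against -0.03 over all, with 30 lower and 6 higher, against 2325 and 2153 of all probe sets. The zinc finger median lay below that of all probe sets by a difference of -0.30 in the first fit, -0.30 centred and -0.25 after quantile normalization. The number of genes past the 2-fold limit went from 11 to 5 under either scaling, with 3 falls and 2 rises.

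**Figure D1:**
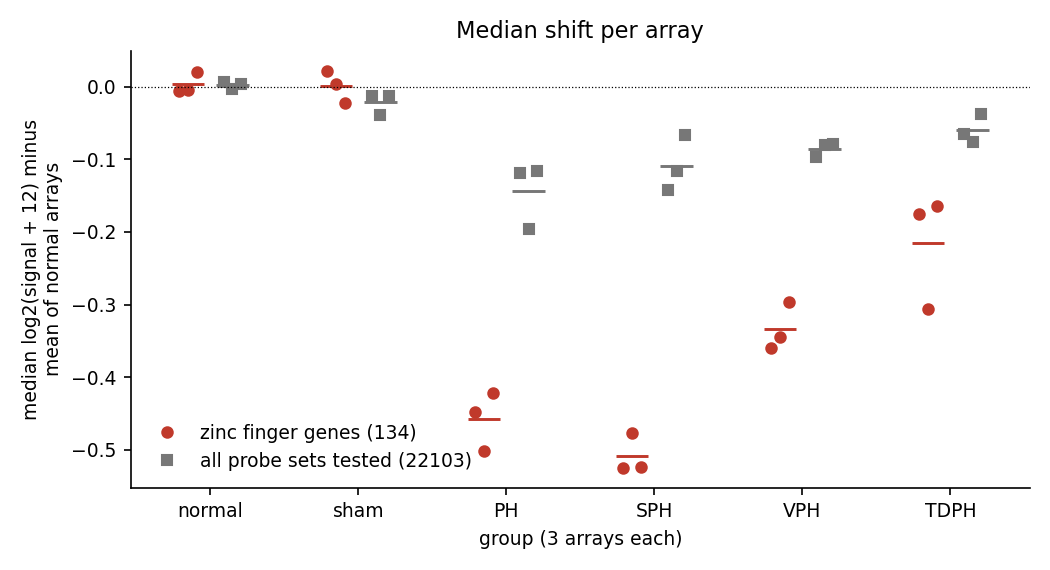
Median of log2(signal + 12) minus the mean of the normal arrays, for each of 18 arrays, over the 134 tested zinc finger genes (circles) and all 22103 tested probe sets (squares); lines are means of 3 arrays. The zinc finger medians of the PH and SPH arrays lie between -0.53 and -0.42, those of VPH between -0.36 and -0.30 and those of TDPH between -0.31 and -0.16, each below the median of all probe sets on its array.

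The same order is seen array by array in the plot of median shifts. Relative to normal liver the zinc finger median was 0.02, 0.00 and -0.02 on the sham arrays and -0.45, -0.50 and -0.42 on the PH arrays. It was -0.53, -0.48 and -0.52 in SPH, -0.36, -0.34 and -0.30 in VPH, and -0.18, -0.31 and -0.16 in TDPH. On the PH arrays the median over all probe sets was -0.12, -0.20 and -0.12, so the shift of the zinc finger genes was the larger on each of them. These values compare with normal liver and are a description with no test.

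The largest fall after PH was that of Znf467 (Zfp467), known in mouse as Ezi, a regulator of fat and bone cell differentiation. It was 390, 424 and 448 on the sham arrays and 116, 93.7 and 155 on the PH arrays. The groups did not overlap, and the difference was -1.72 ± 0.25 (adjusted p 3.11e-05). It was no higher with the nerves cut, at means of 134 ± 50 in SPH, 160 ± 14.2 in VPH and 110 ± 31.2 in TDPH, none of which passed the test against PH.

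Zfp354a, the gene that rose most after sham operation, was 1556, 1676 and 1270 after PH, below every sham array and above every normal array. The fall from sham was -1.22 ± 0.19 (adjusted p 1.02e-04). Zfp395, which binds the promoter of the huntingtin gene, was 387, 413 and 479 in sham and 196, 171 and 214 in PH, a fall of -1.09 ± 0.17 (adjusted p 6.49e-05). It was -0.94 after centring or quantile normalization, still past the adjusted p but under 2-fold. Zfp426l, which was chosen for naming after its values were seen, was 747, 771 and 751 in sham and 373, 374 and 360 in PH. With so little spread, its fall of -1.01 ± 0.10 had an adjusted p of 4.06e-07, and it was just under the 2-fold limit without sham array 2 (-0.998) or PH array 3 (-0.995). It was -0.86 after centring and -0.90 after quantile normalization.

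The other 5 falls were in Zfp324, Znf688, Zfp26, Znf672 and Znf142, and all but that of Zfp324 missed a limit when some single array was left out. Zfp324 was 313, 331 and 345 in sham and 160, 155 and 138 in PH (-1.07 ± 0.25, adjusted p 0.00353), and a second probe set gave -0.43 with an adjusted p of 0.543. Znf688 (Zfp688) was 382, 337 and 306 in sham and 172, 174 and 143 in PH (-1.02 ± 0.19, adjusted p 4.29e-04). Both stayed past the adjusted p after centring, at -0.92 and -0.86, and after quantile normalization, at -0.93 and -0.87, but were under 2-fold. Znf688 was also under 2-fold without sham array 1 (-0.94) or PH array 3 (-0.93). Zfp26 was 200, 186 and 155 in sham and 107, 89.9 and 48.4 in PH (-1.08 ± 0.28, adjusted p 0.00697), and -0.79 without PH array 3, -0.93 after centring and -0.93 after quantile normalization. Znf672 (Zfp672) was 201, 231 and 231 in sham and 78.3, 148 and 90.3 in PH (-1.03 ± 0.30, adjusted p 0.0186). Its adjusted p was over 0.05 without sham array 2 (0.0557), sham array 3 (0.0566), PH array 1 (0.0823) or PH array 3 (0.0622), and its difference was -0.88 after centring and -0.89 after quantile normalization. Znf142 (Zfp142) was 102, 181 and 214 in sham and 63.3, 62.8 and 27.3 in PH (-1.50 ± 0.40, adjusted p 0.00907), and passed neither without sham array 3 (0.0518) nor without PH array 3 (0.0537). In each of these 5 genes all PH arrays were nevertheless below all sham arrays.

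Only 2 zinc finger genes rose. Zfp189 was 679, 734 and 655 in sham and 1999, 2012 and 1911 in PH, with a narrow spread in both groups and a rise of 1.50 ± 0.13 (adjusted p 5.71e-08). Znf770 (Zfp770) was 43.1, 65.6 and 61.3 in sham and 186, 146 and 139 in PH. It is a dim gene, and its rise was 1.30 ± 0.27 (adjusted p 0.00126), or under 2-fold with a pseudocount of 50.

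Zfp36l1 had the brightest probe set of the family and changed with high precision though by less than 2-fold. It was 10773, 10786 and 10566 in sham and 17678, 17457 and 16823 in PH, which is higher by 0.69 ± 0.04 (adjusted p 3.60e-11). Its relative Zfp36l2 was 665, 718 and 594 in sham and 762, 764 and 603 in PH, so the groups overlapped (0.10 ± 0.11, adjusted p 0.588). Zfp446 was higher after PH by 0.53 ± 0.09 (adjusted p 2.14e-04).

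Among genes past the adjusted p but below the 2-fold limit, the largest decreases were those of Zfp709l2, Zfp68 and Zfp110. Zfp68 went from 430 ± 16.8 to 211 ± 28.5, a difference of -0.998 ± 0.14 (adjusted p 2.29e-05), and its other probe sets gave -0.79 and -1.28. Zfp709l2 had the same difference with a wider error (-0.999 ± 0.32, adjusted p 0.0274), and its adjusted p was 0.122 without sham array 1, 0.0675 without sham array 3, 0.112 without PH array 1 and 0.0583 without PH array 2. It did not pass after centring or quantile normalization either. Zfp110, known in mouse as a protein that binds the p75 neurotrophin receptor, was 1389 to 1421 on the sham arrays and 593 to 906 on the PH arrays (-0.92 ± 0.12, adjusted p 1.45e-05). Zfp219 was lower by -0.90 ± 0.16 (adjusted p 4.03e-04). Zfp148, a factor of GC-rich promoters also called ZBP-89, was lower by -0.61 ± 0.08 (adjusted p 1.76e-05). Zfp207, a spindle and kinetochore protein, was lower by -0.58 ± 0.12 (adjusted p 0.00148).

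Several of the brightest genes did not pass the test after PH. Zfp706 (0.04), Znf706 (-0.10), Zfp364 (0.06), Zfp91 (-0.04), Zfp281 (0.15) and Zfp260 (-0.17) all had adjusted p-values above 0.05. Zfp91 was 1409 to 1512 on the sham arrays and 1407 to 1453 on the PH arrays, so the ranges overlapped.

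**Figure D2:**
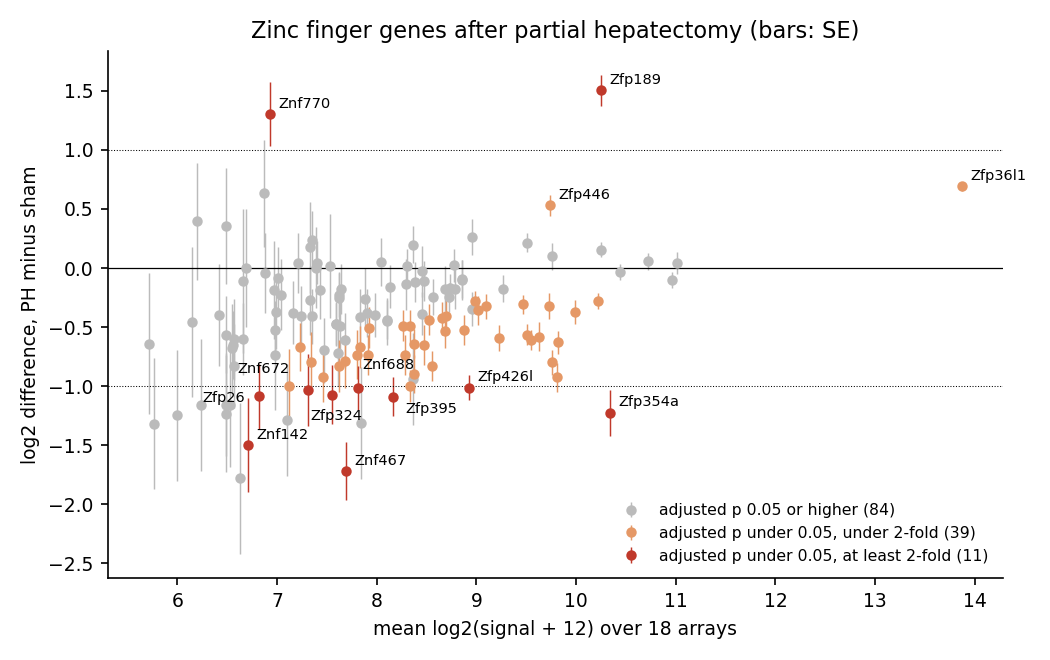
Difference between PH and sham (log2, y axis) against the mean log2(signal + 12) over 18 arrays (x axis) for the 134 tested zinc finger genes; bars are SE and dotted lines mark 2-fold. Of the 134, 11 passed both limits (dark red), 39 the adjusted p alone (orange) and 84 neither (grey), and 110 points lie below 0, while Zfp36l1, Zfp706, Zfp364, Zfp189 and Zfp281 at the bright end lie above it.

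A run of 4 adjacent members gave similar differences after PH. In the GRCr8 gene order Zfp26, Zfp426, Zfp426l and Zfp426l2 (Zfp846) follow each other, and their differences were -1.08, -0.64, -1.01 and -0.60, of which those of Zfp426 and Zfp426l2 did not pass the test. Of 129 members placed in that annotation, 18 stand next to another member, in 10 pairs. Neighbours could also differ in sign: Zfp324 fell by 1.07 while the adjacent Zfp446 was higher by 0.53.

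Related lists give the setting of these values. Of 18 tested cofactors of KRAB repression, 5 were lower after PH by the adjusted p and none higher, with a median of -0.20. Over all probe sets the median was -0.11, with 13.6% lower and 8.75% higher. Trim28, the corepressor itself, went from 1569 ± 80.7 in sham to 1188 ± 36.5 in PH (-0.40 ± 0.07, adjusted p 1.91e-04). Mphosph8, a reader of the H3K9 methyl mark in the HUSH complex, went from 1453 to 742 (-0.96 ± 0.09, adjusted p 2.06e-07). Cbx5, an HP1 protein, gave 0.02 with an adjusted p of 0.961. The Setdb1 probe sets name a second gene as well and were not used.

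Zinc finger genes of other naming classes had medians below 0, as had all probe sets (-0.11, with 13.6% lower and 8.75% higher). Of 7 tested SCAN genes 4 were lower and none higher, with a median of -0.51; Zscan12 fell by 1.11 (SE 0.22, adjusted p 8.02e-04). Of 27 BTB genes 4 were lower and 1 higher, with a median of -0.31; Zbtb45 fell by 1.39 (SE 0.32, adjusted p 0.00318). Of 15 CCCH genes outside the Zfp and Znf names 1 was lower and 2 higher, with a median of -0.17. The 16 mRNA decay factors, which include the deadenylases that Zfp36l1 and Zfp36l2 recruit, had a median of -0.24, with 5 lower and none higher.

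**Figure D3:**
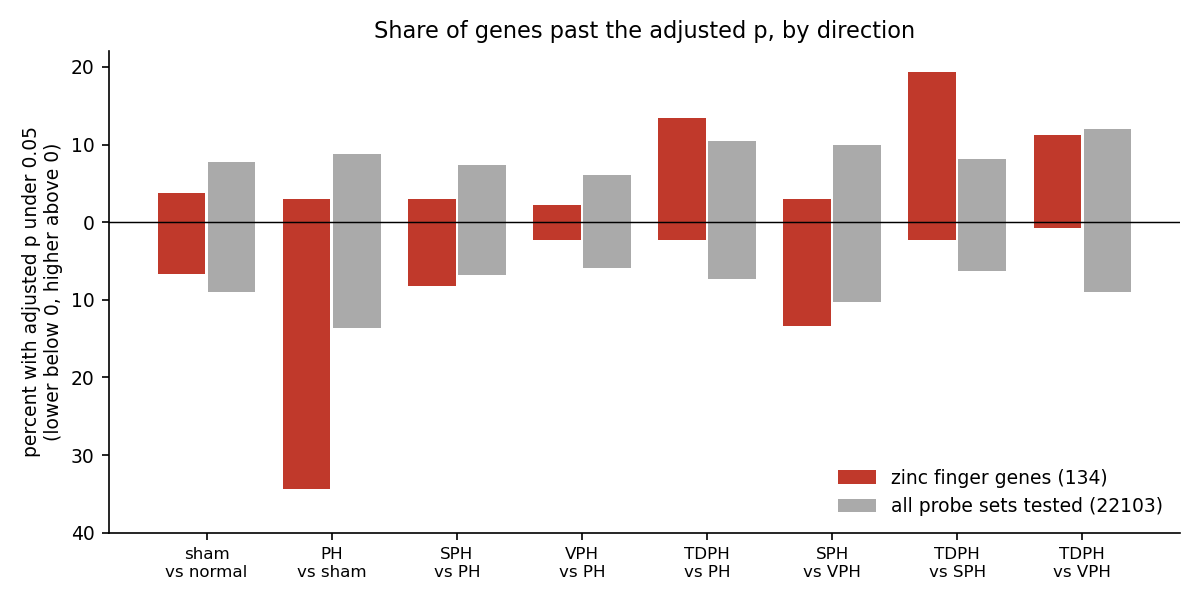
Percent of the 134 tested zinc finger genes (red) and of all 22103 tested probe sets (grey) with an adjusted p under 0.05 in each of 8 comparisons, higher above 0 and lower below. The widest gap is in PH against sham, where 34.3% of the zinc finger genes and 13.6% of all probe sets were lower.

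Cutting the sympathetic supply before PH changed few members beyond PH itself. In SPH against PH 1 gene fell and none rose; 0.543% of all probe sets fell and 0.941% rose. By the adjusted p, 11 were lower (6.8% of all probe sets) and 4 higher (7.42%), and the median was -0.09, against 0.03 over all. The arrays did not overlap in 22 genes below PH (11.6% of all probe sets) and 6 above (13.8%). When the spread was taken from the PH and SPH arrays alone, 5 of these 15 passed, and of all probe sets 3.06% were higher and 1.95% lower.

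Zfp354a was the gene that fell, to 443, 981 and 915 in SPH, all below the lowest PH array (1270). The difference was -1.01 ± 0.19 (adjusted p 0.00138) but under 2-fold without SPH array 1 (-0.65), PH array 1 (-0.98) or PH array 2 (-0.92), and after quantile normalization (-0.98). SPH array 1 was the lowest of the 3.

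The RNA-decay pair was higher after sympathectomy. Zfp36l1 was 23206, 21521 and 22154 in SPH, above every PH array, with a difference of 0.36 ± 0.04 (adjusted p 2.30e-06). Zfp36l2 was 1434, 976 and 1208, also above every PH array (0.75 ± 0.11, adjusted p 1.64e-04), and its second probe set gave 1.26. Neutrophil markers were highest in the same group: the summed signal of 6 genes was 19743 to 41688 in SPH, 11776 to 12375 in PH and 1867 to 2096 in sham. Their part in the levels of Zfp36l1 and Zfp36l2 was not tested.

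Other members past the adjusted p in SPH were less firm. Zfp385b was higher by 0.79 ± 0.23 (adjusted p 0.0224), with adjusted p-values of 0.111 without PH array 3, 0.0734 without SPH array 1 and 0.0536 without SPH array 3. Zfp260, known in rat heart as a target of alpha-1 adrenergic signalling, was higher by 0.43 ± 0.12 (adjusted p 0.0149), and its second probe set gave 0.54. Its adjusted p was 0.0518 without PH array 2, 0.0907 without PH array 3 and 0.065 without SPH array 2. Zfp207 was lower by -0.54 ± 0.12 (adjusted p 0.00463), and its second probe set gave -0.41 with an adjusted p of 0.357. Zfp212 was lower by -0.74 ± 0.17 (adjusted p 0.0044), but its second, dimmer probe set gave 0.64 (adjusted p 0.153), the opposite sign. Znf593 (Zfp593), which in yeast has a counterpart in ribosome assembly, was lower by -0.56 ± 0.18 (adjusted p 0.0496). A further probe set gave 0.27, and leaving out any of PH arrays 2 and 3 or SPH arrays 1 to 3 took its adjusted p to between 0.065 and 0.154.

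After vagotomy few members passed the test. In VPH against PH no zinc finger gene rose or fell by the 2-fold limit, where 1.09% of all probe sets rose and 0.701% fell. In limma's test 3 were higher and 3 lower by the adjusted p, against 6.05% and 5.94% of all probe sets. With arrays centred, 1 was higher and 5 lower, against 3.57% and 9.19% of all probe sets. After quantile normalization the counts were 0 and 3, against 5.09% and 5.88%. The median was 0.11, against 0.05 over all probe sets. The arrays did not overlap in 25 genes above PH (17.6% of all probe sets) and 12 below (13.9%).

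The 3 lower genes were among the 4 that had been higher after PH, the fourth being Znf770. Zfp36l1 was 12328, 12441 and 11875 in VPH, below every PH array and above every sham array (-0.50 ± 0.04, adjusted p 3.44e-08). Zfp446 was 799, 808 and 803 in VPH and 1130, 1257 and 1337 in PH (-0.62 ± 0.09, adjusted p 1.06e-04). Zfp189 was 1404, 1395 and 1406 in VPH, below every PH array (-0.49 ± 0.13, adjusted p 0.0191), with adjusted p-values of 0.0566 to 0.0612 without PH array 1, PH array 2, VPH array 2 or VPH array 3. The PH arrays are shared by this comparison and that with sham. Lymphocyte markers summed to 23252 to 23620 in VPH and 9035 to 9154 in PH, and macrophage markers to 44955 to 47965 and 32484 to 33452. By the adjusted p, 3 of 10 lymphocyte markers were higher and none lower (median 0.72), and 9 of 9 macrophage markers were higher (median 0.55). A sum is weighted toward its brightest genes. The part of these cells was not tested.

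The 3 higher genes were Znf703 (Zfp703), a corepressor known from breast cancer, Znf821 (Zfp821) and Znf688. Their differences were 0.88 ± 0.28, 0.76 ± 0.22 and 0.58 ± 0.19, with adjusted p-values of 0.0431, 0.025 and 0.0451. None of the 3 passed in every fit with an array left out. The adjusted p of Znf703 reached 0.148 without PH array 1, 0.127 without PH array 2, 0.137 without VPH array 1, 0.0744 without VPH array 2 and 0.0888 without VPH array 3. That of Znf821 was 0.106 without PH array 1, 0.0564 without VPH array 1 and 0.112 without VPH array 3. For Znf688 it was 0.0724, 0.0707 and 0.145 without PH array 1, 2 or 3, and 0.182 and 0.134 without VPH array 2 or 3.

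After total denervation the zinc finger genes were, in the median, higher than after PH with nerves intact, and so were all probe sets in the median. In TDPH against PH 1 gene rose and none fell; 1.29% of all probe sets rose and 0.362% fell. On the adjusted p alone, 18 were higher (10.5% of all probe sets) and 3 lower (7.25%). With arrays centred the split became 4 higher and 6 lower, against 4.19% and 13.2% of all probe sets. After quantile normalization it was 6 higher and 4 lower, against 6.74% and 6.61%. The median of 0.18, against 0.11 over all, became 0.02 and 0.05, against -0.06 and 0.00 over all, so its distance from the median of all probe sets was 0.08 in the first fit, 0.08 centred and 0.04 after quantile normalization. The arrays did not overlap in 34 genes above PH (21.3% of all probe sets) and 7 below (12.7%).

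Znf142 rose, with 63.3, 62.8 and 27.3 in PH and 132, 104 and 177 in TDPH (1.28 ± 0.40, adjusted p 0.0299). Its adjusted p was 0.136 without PH array 3, 0.0707 without TDPH array 1 and 0.122 without TDPH array 3, and 0.0549 and 0.0578 after centring and quantile normalization. Znf821 was higher by just under 2-fold (0.999 ± 0.22, adjusted p 0.00262), with TDPH arrays from 366 to 596 and PH arrays from 203 to 272. Zfp61 was higher by 0.79 ± 0.17 (adjusted p 0.0028), and other probe sets gave 0.84 and 0.41, neither past the test. Zfp469, which in humans is linked to brittle cornea syndrome, was higher by 0.77 ± 0.21 (adjusted p 0.0121), or 0.053 without PH array 2, and did not pass after centring or quantile normalization.

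Lower genes in TDPH were Zfp446, Zfp827 and Zfp706. Zfp446 was 746, 827 and 732, below every PH array (-0.68 ± 0.09, adjusted p 2.67e-05). Zfp446 was also lower in SPH (-0.37 ± 0.09, adjusted p 0.00897), so it was below PH in all 3 denervated groups, which share the PH arrays. Zfp827 was lower by -0.73 ± 0.20 (adjusted p 0.0149), with 0.072 without PH array 1, 0.0564 without TDPH array 1 and 0.091 without TDPH array 2. Zfp706 was lower by -0.28 ± 0.09 (adjusted p 0.0435), which was over 0.05 without any 1 of the PH arrays or without TDPH array 2 or 3 (0.0761 to 0.151). Znf706, now a name of the same gene, has a similarly bright probe set that gave -0.01 (adjusted p 0.947) in limma's test. The lower value thus rests on 1 of these 2 probe sets.

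Zfp36l1 and Zfp354a did not differ detectably between TDPH and PH. Zfp36l1 was 17298, 17946 and 17549 in TDPH, overlapping the PH arrays (0.02 ± 0.04, adjusted p 0.746). Zfp354a was 1766, 1699 and 1456, also overlapping (0.13 ± 0.19, adjusted p 0.718). Each of these genes had differed from PH after sympathectomy, and Zfp36l1 in the opposite direction after vagotomy.

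**Figure D4:**
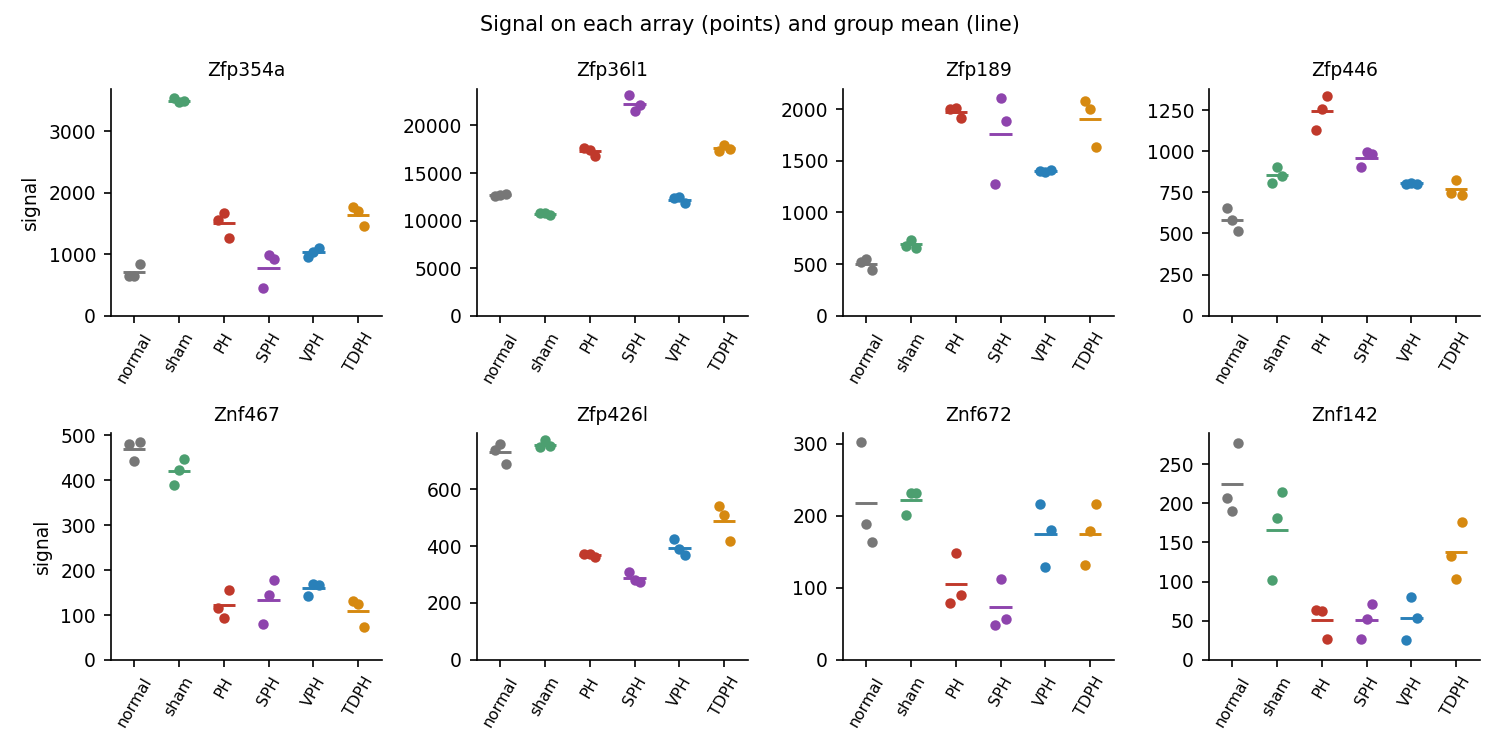
Signal of 8 zinc finger genes on each of the 18 arrays (points, 3 per group) with the group mean (line), on axes from 0. Zfp354a is highest on the sham arrays (3477 to 3530), Zfp36l1 is highest in SPH (21521 to 23206) and lowest in sham, Zfp189 is high in every group with PH, and Zfp446 is highest in PH (1130 to 1337).

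There were 12 genes that were lower after PH and higher in TDPH than in PH: Zfp61, Zfp131, Zfp148, Zfp187 (Zscan26), Zfp318, Zfp330, Zfp384, Zfp386, Zfp422, Zfp426l, Znf142 and Znf598 (Zfp598). They are 8.96% of the zinc finger genes, and 4.97% of all probe sets met the same conditions. Both comparisons use the PH arrays, so they are not independent. The list depends on scaling: Zfp61 and Zfp386 alone met the conditions with arrays centred, and Zfp61, Zfp187 and Zfp386 after quantile normalization. Zfp386 averaged 1180 ± 87.2 in sham, 760 ± 49.5 in PH and 1049 ± 17.2 in TDPH. Zfp187 averaged 1222 ± 43.9, 699 ± 54.4 and 947 ± 78.9 in the same groups. Znf598, a ubiquitin ligase that senses collided ribosomes, averaged 867 ± 96.1, 691 ± 63.8 and 1039 ± 59.9. Zfp386 and Zfp187 were thus highest in sham and Znf598 in TDPH. Trim28 averaged 1635 ± 69.1 in TDPH, higher than in PH by 0.46 ± 0.07 (adjusted p 7.44e-05). In contrast, 7 genes were lower after PH and lower again in SPH: Zfp354a, Zfp110, Zfp180, Zfp207, Zfp347, Zfp426l and Znf654. They are 5.22% of the zinc finger genes, against 0.9% of all probe sets, and these comparisons share the PH arrays too. With arrays centred, and after quantile normalization, 5 met the conditions, without Zfp180 and Zfp347. For both lists the share of all probe sets under these scalings was not computed, so the excess cannot be judged there. Zfp426l, which is in both lists, averaged 369 ± 7.5 in PH, 288 ± 18.1 in SPH and 489 ± 63.7 in TDPH.

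The direct comparisons of the denervated groups leave out the PH arrays. In TDPH against SPH 4 zinc finger genes rose and none fell, where 1.11% of all probe sets rose and 0.543% fell. With no limit on fold, 26 were higher (8.12% of all probe sets) and 3 lower (6.28%), and the median was 0.25, against 0.06 over all. The arrays did not overlap in 36 genes above SPH (16.1%) and 6 below (10.5%). With arrays centred 16 were higher and 3 lower, against 4.76% and 8.44% of all probe sets. With the spread taken from the SPH and TDPH arrays alone 8 were higher and 1 lower, against 2.94% and 2.93%, and 1 rose. Between TDPH and SPH all 5 tested neutrophil markers fell (median -2.03). By the adjusted p, 10 of 12 hepatocyte markers were lower and 1 higher, and 7 of 9 macrophage markers were lower and none higher. The part of these cells in the zinc finger differences was not tested. In SPH against VPH 3 fell and none rose (1.29% and 1.48% of all probe sets), with 18 lower (10.3%) and 4 higher (9.96%) by the adjusted p and a median of -0.19, against -0.03 over all. The arrays did not overlap in 33 genes below VPH (17.1%) and 12 above (15.6%). In TDPH against VPH 3 rose and none fell (1.95% and 0.878% of all probe sets), and 15 were higher (12%) and 1 lower (9.03%). The arrays did not overlap in 25 genes above VPH (21.9%) and 6 below (17.3%). There the median of 0.07 became -0.003 after quantile normalization and -0.004 after centring.

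Levels of the brightest member separated most groups. Zfp36l1 averaged 10708 ± 124 in sham, 12215 ± 299 in VPH, 12691 ± 81 in normal liver, 17319 ± 444 in PH, 17597 ± 327 in TDPH and 22294 ± 851 in SPH. Only PH and TDPH overlapped in their arrays. The difference between SPH and VPH was 0.87 ± 0.04 (adjusted p 1.01e-11). For Zfp354a the order was normal liver (711 ± 105), SPH (780 ± 293), VPH (1029 ± 78.4), PH (1500.5 ± 208), TDPH (1641 ± 163) and sham (3497 ± 29.4). In that order normal liver overlapped with SPH, SPH with VPH, and PH with TDPH, while VPH lay below PH and TDPH below sham on every array.

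**Figure D5:**
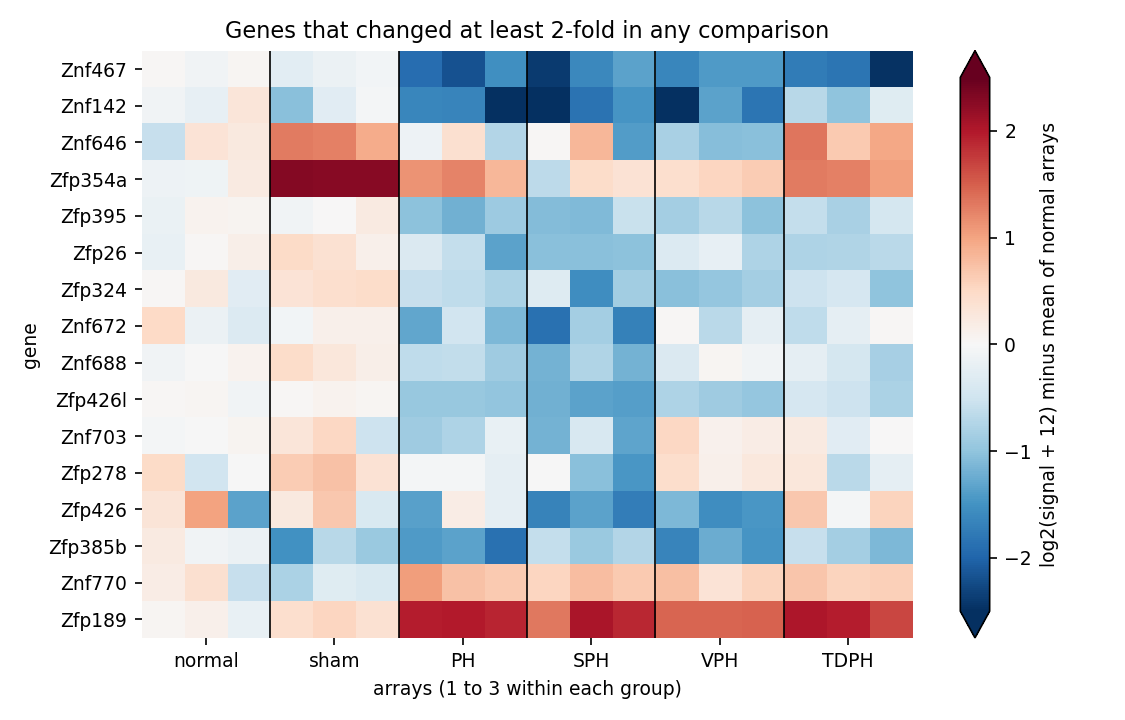
Signal of the 16 zinc finger genes that rose or fell in any of the 8 comparisons, as log2(signal + 12) minus the mean of the normal arrays, for the 18 arrays in 6 groups; colours beyond 2.5 are shown as 2.5. Rows are ordered by the difference between PH and sham; Znf467 and Znf142 are low in PH, and Zfp189 and Znf770 are high in all groups with PH.

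In all, 16 of the 134 tested genes rose or fell in at least 1 of the 8 comparisons, and 67 passed the adjusted p in at least 1 of the 5 comparisons with normal, sham or PH as control. The other 67 passed in none of those 5. The share of all probe sets that met either condition was not computed, so whether these counts exceed it cannot be judged.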

How the data were processed

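RNA of rat liver was measured on Affymetrix Rat Genome 230 2.0 arrays, 3 per group, from 5 ug of total RNA per array, per the labels' protocols. Each deposited value is a linear signal intensity for one of 31099 probe sets; GCOS 2.0 is named in the submitters' processing notes, and each array's mean without the top and bottom 2% was 500.2 to 500.3. The deposited ratio table holds the symbols and the authors' log2 ratios against normal liver, per the file headers, used only as an alternative; 90 of its value columns were not used. How background was handled is not stated in those sources.

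Signals were not normalized further. Group means of log2(signal + 12) were fitted with limma 3.58.1 in R 4.3.3 to all 18 arrays (lmFit, eBayes with trend; 12 residual and 7.14 prior degrees of freedom), over the 22103 probe sets that exceeded the array's 40th percentile at least 3 times, without the 57 control probe sets. Tests were two-sided and adjusted within each comparison; the limits were an adjusted p of 0.05 and 2-fold. The fit was tested on simulated data. The number of arrays limits the precision.

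Members and lists were chosen with earlier results of these data known. Named are all genes that rose or fell (the 10 largest where over 10), the 3 largest higher and lower below 2-fold in 5 comparisons, the 6 brightest, and fixed genes (Zfp106, a fixed name, is not among the members); genes named only for appearing in 2 comparisons were chosen after their values were seen. Alternatives were other pseudocounts (1 and 50), filters, scalings, eBayes without trend, a replicate block, the compared groups alone, other probe sets, the authors' ratios and each array left out.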

Additional observations from a re-analysis of the deposited data

Results flagged for a closer look

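In limma's direct test 10 differences between denervated groups passed the adjusted p of 0.05 and 2-fold. Between SPH and VPH these were Znf703 (-1.23, adjusted p 0.00329), Znf672 (-1.19, 0.00854) and Zfp278 (Patz1, -1.12, 0.0403). Znf703 was 87.4, 159 and 78 in SPH and 309, 230 and 242 in VPH, and this was the only one of the 3 that passed both limits in every alternative run for it. The adjusted p of Znf672 between SPH and VPH was 0.0394 without SPH array 1, where the difference was -0.99. With the compared groups alone its adjusted p in limma's test was 0.058, and with a pseudocount of 50 its difference was -0.89. Zfp278 did not pass without SPH array 2 (0.107), SPH array 3 (0.163), VPH array 1 (0.105), VPH array 2 (0.0733) or VPH array 3 (0.0955).

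Between TDPH and SPH they were Zfp426 (1.97, adjusted p 0.0308), Znf142 (1.30, 0.032), Znf672 (1.19, 0.011) and Zfp354a (1.14, 4.06e-04). Without SPH array 1 Zfp354a differed by 0.78 and none of the 4 passed both limits. Zfp426 was 10.9, 17.1 and 10.1 in SPH and 104, 59 and 95.8 in TDPH, and it did not pass without SPH array 1 (0.0655), SPH array 3 (0.065), TDPH array 1 (0.108) or TDPH array 3 (0.0943). The signal that decided the membership of Zfp426 was 103.84, close to its TDPH array of 104. Its membership may thus have rested on a TDPH array, which limits its comparisons of TDPH with SPH and with VPH. Znf142 did not pass without SPH array 1 (0.134), SPH array 2 (0.0522), TDPH array 1 (0.079) or TDPH array 3 (0.13), and Znf672 not without SPH array 1 (0.051) or TDPH array 3 (0.0591).

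Between TDPH and VPH they were Znf646 (Zfp646, 1.97, adjusted p 0.0144), Zfp426 (1.78, 0.0394) and Znf142 (1.26, 0.0278). Znf646 was 16.1, 11.7 and 11.9 in VPH and 114, 65.9 and 85 in TDPH, and its adjusted p was 0.0651 without TDPH array 1. Of these arrays only the TDPH array of 114 was above the signal limit for membership. The membership of Znf646 may thus also have rested on a TDPH array, which limits its comparison of TDPH with VPH. Zfp426 passed in no fit with an array left out (0.0515 to 0.122), and Znf142 not without VPH array 1 (0.134), VPH array 3 (0.0569), TDPH array 1 (0.0657) or TDPH array 3 (0.115). The fold of such dim genes depends on the pseudocount. Groups of 3 arrays are too small for a test of outlying arrays.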

How the results depend on the processing

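Of 844 alternative values for 54 named differences, 669 kept their direction and side of the limits or, in the authors' deposited table, lay within 1 SD of the arrays, 170 no longer passed, 3 differed by more in the authors' deposited table (PH against sham: Zfp110 -0.69, Zfp446 0.32, Znf770 0.92), and 2 reversed at another probe set (Zfp212, 0.64, and Znf593, 0.27, SPH against PH). Counts past the adjusted p alone, and their alternatives, were added after the data were seen. With a pseudocount of 50 the genes past both limits became 1 in sham against normal, 6 in PH against sham, 0 in SPH against PH, 1 in SPH against VPH and 2 in TDPH against SPH. With a pseudocount of 1 they became 2 in TDPH against PH, and with the filter at 100 on 9 arrays 2 there and 1 in TDPH against VPH. Counts over all 22103 probe sets moved as well. With the pseudocount of 50, 314 of them rose and 309 fell in PH against sham, against 438 and 525 in the first fit. Quantile normalization and centring each left 1 zinc finger gene in sham against normal, 5 in PH against sham and 0 in TDPH against PH, and quantile normalization left 0 in SPH against PH. By the adjusted p, quantile normalization left 3 in VPH against PH, both left 10 in TDPH against PH, and centring left 19 in TDPH against SPH and 10 in TDPH against VPH. Of all probe sets, 628 rose and 310 fell in PH against sham when centred, and 555 rose and 332 fell after quantile normalization. With the compared groups alone, 5 zinc finger genes passed the adjusted p in SPH against PH and 9 in each of SPH against VPH and TDPH against SPH, where 1 passed both limits. Of all probe sets, 1322 were then higher and 1190 lower in SPH against VPH, against 2202 and 2273 in the first fit. Replicate numbers are shared across groups, but same-numbered arrays did not deviate together (correlations -0.03 to 0.06, 45 pairs); with the replicate block 2 passed both limits in TDPH against PH, and no other count moved by over 1.5 times. With 1 array left out, those past both limits ranged from 1 to 2 (sham against normal), 10 to 14 (PH against sham), 0 to 2 (SPH against PH), 0 to 1 (VPH against PH), 0 to 3 (TDPH against PH), 2 to 5 (SPH against VPH), 0 to 5 (TDPH against SPH) and 0 to 3 (TDPH against VPH). Those past the adjusted p ranged, in the same order, from 9 to 14, 41 to 44, 9 to 15, 2 to 5, 13 to 17, 13 to 22, 17 to 25 and 6 to 14. Counts over all probe sets in these fits are not given here. Leaving out an array both lowered and raised the counts past both limits. It never raised those past the adjusted p, and the cause was not tested. Dim signals limit Zfp426 and Znf646.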
